A study of Homo sapiens with 12 samples.

Results

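The genes described here are 39 genes of the response to low oxygen, chosen by symbol: the hypoxia-inducible factors, the enzymes that sense oxygen and mark them for degradation, and genes that the factors are known to activate. All 39 were found among the 40929 gene symbols of the count tables, and 38 of them passed the filter on low counts that left 15104 genes for testing. EFNA3, which encodes an ephrin ligand, did not pass. RNA came from MDA-MB-231, an established line of triple-negative breast cancer cells, given as wild type and epithelial and grown in RPMI with 10% serum. The cells spent 48 h in medium with 10 mM glucose (NG), 10 mM glucose with 25 µM cariporide (CAR), 5 mM glucose (LG) or 5 mM glucose with 25 µM cariporide (LGCAR), with 3 libraries in each group. Cariporide is a small molecule that inhibits the export of acid from the cell. Cultures were kept in humid air with 5% CO2, and no group is labelled as hypoxic.

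Hypoxia-inducible factors are pairs of an alpha subunit, encoded by HIF1A or EPAS1, with the stable partner encoded by ARNT. When oxygen is present, prolyl hydroxylases encoded by EGLN1, EGLN2 and EGLN3 modify the alpha subunit, the VHL ubiquitin ligase recognises it and it is degraded, while the asparaginyl hydroxylase encoded by HIF1AN blocks its binding to coactivators. When oxygen is low the alpha subunit accumulates and activates genes of angiogenesis, glycolysis, mitophagy, chromatin demethylation and collagen modification. The factor is controlled mostly at the level of the protein, which RNA counts do not measure.

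Library totals ran from 18069004 to 24837409 counts, and cytosolic ribosomal RNA took 7.1% (CAR 1) to 11.5% (LGCAR 3) of the counts, with 9.32% or more in the LGCAR libraries and 8.53% or less in the CAR libraries. TXNIP, whose transcription follows glucose supply, was lower at 5 mM glucose (log2 fold change -2.03 over both drug levels, edgeR adjusted p = 6.81e-13). Its mean was 264 CPM in NG, 253 CPM in CAR, 46.4 CPM in LG and 86.2 CPM in LGCAR, so the fall was smaller with cariporide. The mesenchymal markers VIM, CD44, AXL and ZEB1 each had at least 1251 counts in every library, while SPARC had 4 to 21. Of the luminal and hormone receptor markers, the epithelial cadherin CDH1 had 22 to 44 counts, ESR1 at most 4 and PGR 0 in all 12 libraries. The others on that list were higher, with 1047 to 1532 counts for ERBB2, 185 to 318 for GATA3 and 211 to 317 for EPCAM. The leukocyte marker CD3E was at 0, PTPRC had at most 8 counts, CDH5, an endothelial marker, and DCN, a fibroblast marker, had at most 2, while CD68 and the fibroblast marker PDGFRB had at least 1127 and 195. The fibroblast marker COL1A1 had 137 to 229 counts and the endothelial marker PECAM1 31 to 57. In these bulk samples, fewer cells that express a gene and less of its RNA per cell cannot be told apart.

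Hypoxia-inducible factors bind DNA at a short core, ACGTG or GCGTG, and both were searched on either strand in the RefSeq promoters of GRCh38.p14, which run from 250 bases before to 50 bases after 1 start of each gene. For KDM3A, KDM4C and P4HA2 that start lies 4327, 37110 and 762 bases inside the gene from its outermost one, and for the other members with a promoter it is the outermost. Promoters were at hand for 30 of the 39 genes, and 24 of these (80.0%) held at least 1 match, against 48.4% of 27305 promoters of all genes. A run of CACGTG counts as 2 overlapping matches, 1 on each strand. The promoters without a match were those of ARNT, HIF1AN, EGLN3, ERRFI1, TMEM45A and P4HA2, and no promoter was at hand for VHL, VEGFA, STC1, BNIP3L, HILPDA, NDRG1, ZNF395, JMJD6 and LOXL2. A match is a string of letters and was not shown to be bound. The stretches below lie upstream of the start and are printed 5′ to 3′ on the gene's own strand, with the matches in capitals, because BNIP3, FAM162A, PLOD2 and P4HA1 were lower and HIF1A and EPAS1 higher at 5 mM glucose.
BNIP3: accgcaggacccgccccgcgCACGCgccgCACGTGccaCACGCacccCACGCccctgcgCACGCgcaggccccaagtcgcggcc
FAM162A: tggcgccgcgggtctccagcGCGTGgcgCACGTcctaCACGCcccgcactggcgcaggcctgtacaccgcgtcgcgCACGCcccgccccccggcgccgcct
PLOD2: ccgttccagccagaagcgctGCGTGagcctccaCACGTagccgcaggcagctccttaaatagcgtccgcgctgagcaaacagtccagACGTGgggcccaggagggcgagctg
P4HA1: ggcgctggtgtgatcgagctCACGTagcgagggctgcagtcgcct
HIF1A: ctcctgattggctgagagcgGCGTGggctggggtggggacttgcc
EPAS1: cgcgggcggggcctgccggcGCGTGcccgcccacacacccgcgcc
The stretches are chr10:131982003-131982086 on the minus strand for BNIP3, chr3:122384070-122384170 on the plus strand for FAM162A, chr3:146161306-146161417 on the minus strand for PLOD2, chr10:73096928-73096972 on the minus strand for P4HA1, chr14:61695289-61695333 on the plus strand for HIF1A and chr2:46297270-46297314 on the plus strand for EPAS1. BNIP3 held 6 matches, FAM162A 4, PLOD2 3 and the other 3 genes 1 each. Of the genes with a promoter, 6 of 7 that fell at 5 mM glucose, 3 of 3 that rose and 14 of 19 that were tested and not called held a match.

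The genes spanned a wide range of levels in untreated cells. Per kilobase of exon, taken from GENCODE 29, the mean level in NG was highest for DDIT4, an inhibitor of the growth kinase mTORC1 (129 ± 2.93 CPM per kb), ERRFI1, an inhibitor of the EGF receptor (126 ± 2.96), and HIF1A itself (82.2 ± 1.75; SD, n = 3 each). The first and second of these did not differ beyond their spread. EPAS1, the other alpha subunit, was at 16.1 ± 0.477 CPM per kb and their partner ARNT at 5.53 ± 0.225. Among the prolyl hydroxylases the order per kilobase was EGLN1 (11.1 ± 0.608), EGLN2 (8.35 ± 0.255) and EGLN3 (1.58 ± 0.0358), each apart from the next by more than its SD. The length used for each gene is that of all its annotated exons together, which can exceed that of the transcript expressed. The SD does not cover an error in length, and the order of genes was not tested with other lengths. At the low end, KDM4C, a histone demethylase, was at 0.667 ± 0.0477 and STC2, a secreted glycoprotein, at 0.284 ± 0.0275 CPM per kb. EGLN2 shared 30.6% of its exon length with other genes on the same strand, ZNF395 34.9%, HILPDA 13.2% and EFNA3 44.7%. DDIT4 shared 41.2% and ANKRD37 35.2% with an antisense gene, so the values of these 6 genes are uncertain.

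**Figure D1:**
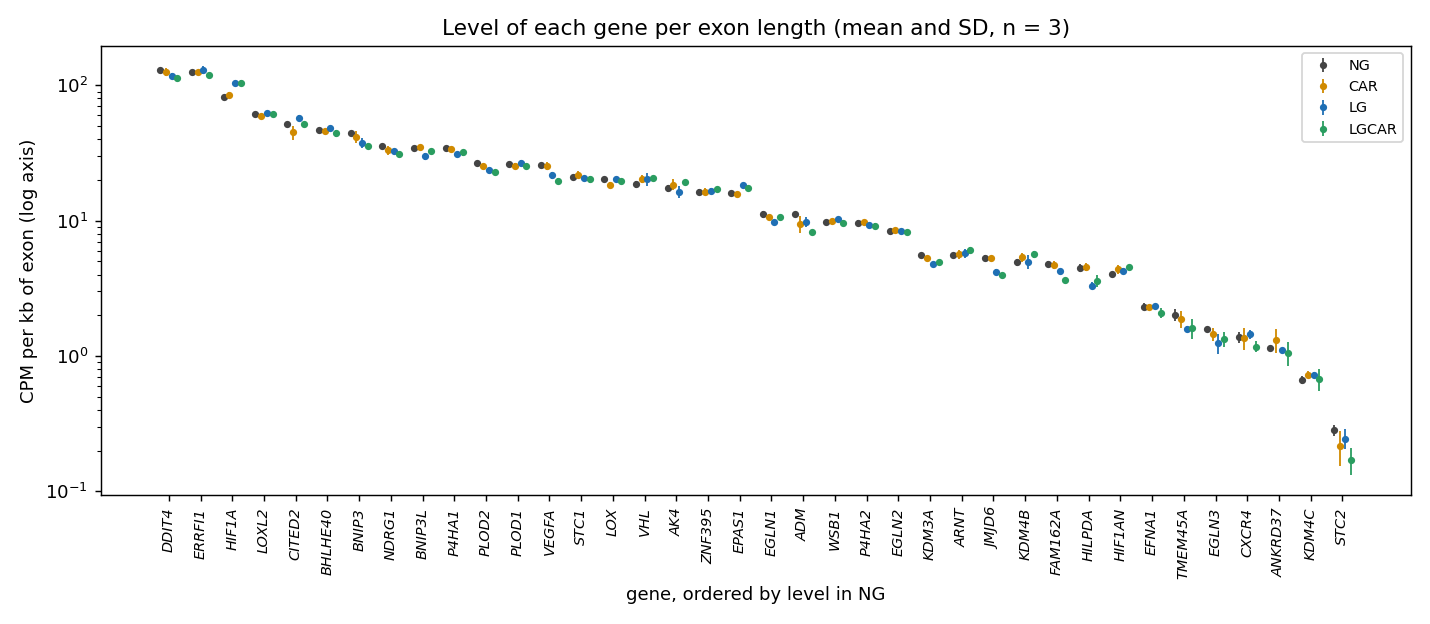
Level of each of the 38 tested genes, as CPM per kilobase of exon on a log axis, with genes ordered by their level in NG. Points are means and bars SD of 3 libraries in each group, and the levels run from DDIT4 (129 ± 2.93 in NG) to STC2 (0.284 ± 0.0275 in NG).

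At 5 mM glucose the transcripts of HIF1A and EPAS1 rose, while VEGFA and 10 other target genes fell. Over both drug levels, 14 of the 38 tested genes differed between 5 and 10 mM glucose (edgeR quasi-likelihood fit, Benjamini-Hochberg adjusted p under 0.05), where 9.73% of all tested genes did. HIF1A, EPAS1 and CITED2 rose, 3 genes beside 5.30% of all genes. VEGFA, BNIP3, BNIP3L, FAM162A, HILPDA, DDIT4, TMEM45A, KDM3A, JMJD6, P4HA1 and PLOD2 fell, 11 genes beside 4.43% of all genes. At an unadjusted p under 0.05 the number was 18, beside 26.0% of all genes. No gene passed a 2-fold change: estimates ran from -0.39 (HILPDA) to 0.32 (HIF1A) on the log2 scale, with a median of -0.07 over the 38 genes and 0.01 over all tested genes. Of 4 tested luminal markers 2 rose as well, CDH1 (0.74, edgeR adjusted p = 0.00573) and GATA3 (0.25, edgeR adjusted p = 0.0448), as did CD68 (0.17, edgeR adjusted p = 0.0127), the 1 tested leukocyte marker. The summed level of the 6 luminal markers was 80.8 to 81.9 CPM in NG, 78.04 to 83.4 CPM in CAR, 84.5 to 90.6 CPM in LG and 84.1 to 93.8 CPM in LGCAR, and that of the leukocyte markers 58.3 to 60.3, 53.9 to 59.97, 66.6 to 73.3 and 59.7 to 63.4 CPM in the same order. Their part in the members' changes was not tested. Calls of HIF1A, EPAS1, VEGFA, BNIP3, FAM162A, HILPDA, JMJD6 and PLOD2 stayed past the threshold in all 9 other settings and with each of the 12 libraries left out. BNIP3L and KDM3A lost theirs only when NG 1 and LGCAR 3 were both dropped (edgeR adjusted p = 0.0611 and 0.0561). The calls of CITED2, DDIT4, TMEM45A and P4HA1 were lost in 8, 5, 8 and 9 of the 12 fits with 1 library left out. They were also lost in 2, 1, 3 and 4 of the 9 other settings, in the same order.

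**Figure D2:**
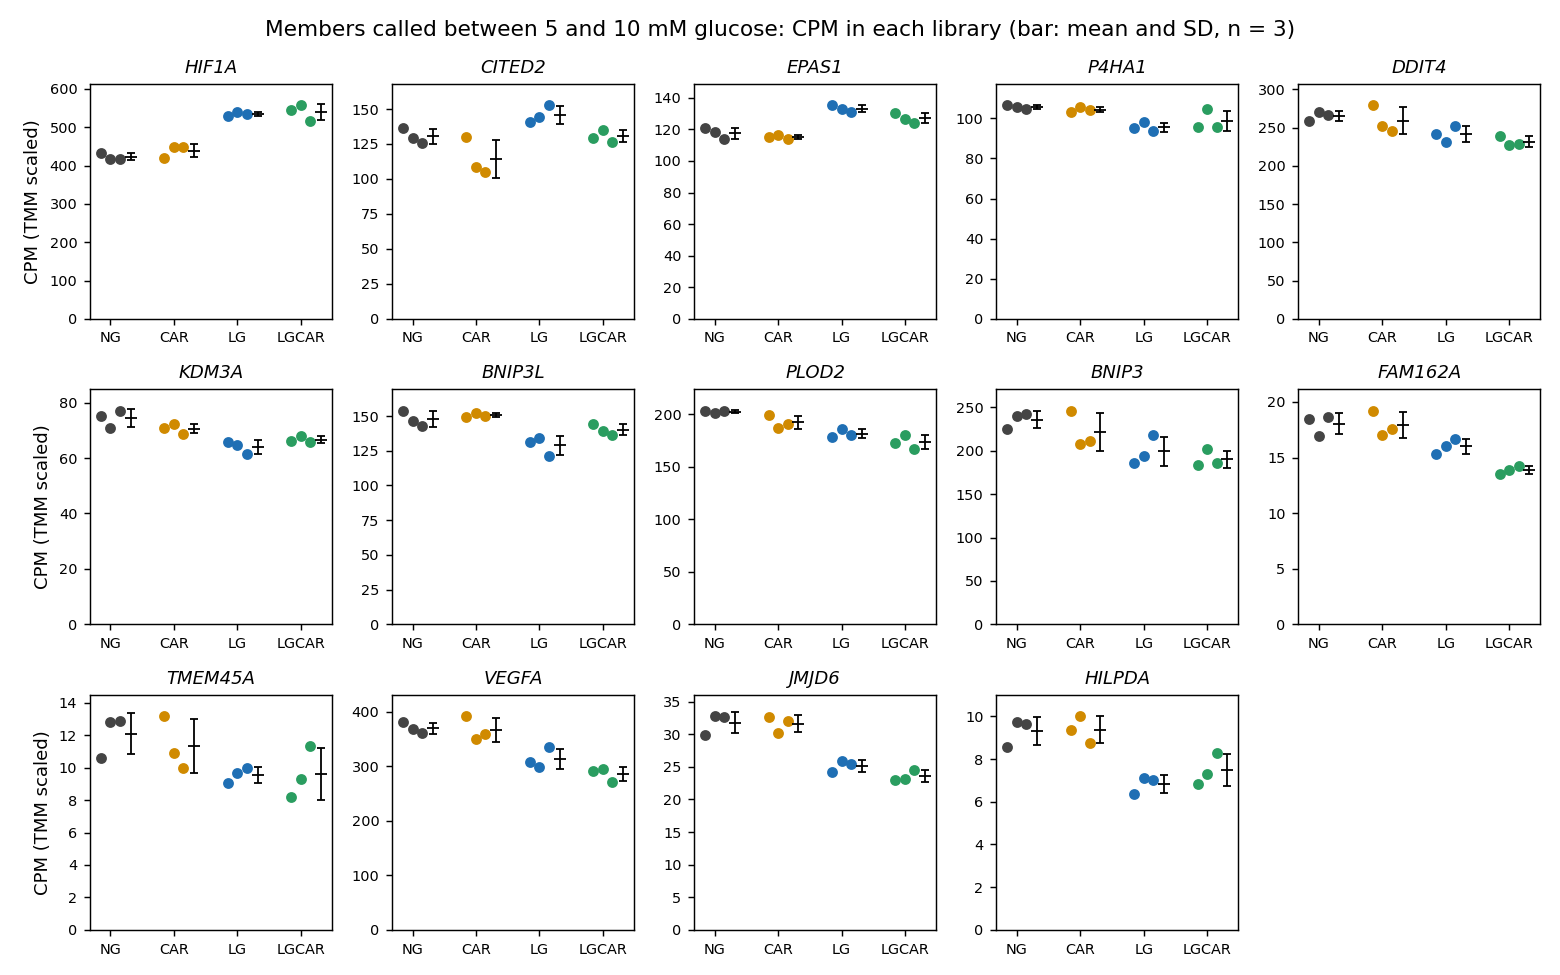
CPM with TMM scaling in each of the 12 libraries for the 14 genes called between 5 and 10 mM glucose, ordered from the highest to the lowest log2 fold change. Points are libraries 1 to 3 from left to right, bars are means with SD (n = 3), and each axis starts at 0. All 6 libraries at 5 mM lie above all 6 at 10 mM for HIF1A and EPAS1 and below them for PLOD2, KDM3A, FAM162A, VEGFA, JMJD6 and HILPDA.

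Transcripts of both alpha subunits were higher at 5 mM glucose. HIF1A was at 434, 418 and 418 CPM in NG 1 to 3, 419, 449 and 449 CPM in CAR 1 to 3, 528, 539.5 and 535 CPM in LG 1 to 3 and 544, 558 and 517 CPM in LGCAR 1 to 3. All 6 libraries at 5 mM glucose were above all 6 at 10 mM, which held in the higher direction for 2.25% of all tested genes (either direction, 4.38%). The CAR libraries overlapped those of NG, and the LGCAR libraries those of LG. The rise was 26.2% in LG over NG (log2 change 0.34 with SE 0.047, edgeR adjusted p = 0.00188), 22.96% in LGCAR over CAR (log2 change 0.30 with SE 0.047, edgeR adjusted p = 0.00462) and 27.5% in LGCAR over NG (log2 change 0.35 with SE 0.0471, edgeR adjusted p = 0.00125). EPAS1 encodes the alpha subunit that is best known from endothelial and kidney cells. EPAS1 was at 121, 118 and 114 CPM in NG 1 to 3, 115, 116 and 114 CPM in CAR 1 to 3, 135, 133 and 131 CPM in LG 1 to 3 and 130.4, 127 and 124 CPM in LGCAR 1 to 3. Its 6 libraries at 5 mM were above the 6 at 10 mM and its LGCAR libraries below those of LG, with a log2 fold change of 0.16 over both drug levels (SE 0.0313, edgeR adjusted p = 0.00486), while LG against NG alone stood at 0.18 (edgeR adjusted p = 0.0503) and passed by DESeq2 (adjusted p = 0.0193) and limma-voom (0.0462). ARNT, the partner subunit, overlapped between groups: 37.7, 35.2 and 35.2 CPM in NG, 33.99, 39.2 and 37.1 CPM in CAR, 39.4, 38.9 and 34.3 CPM in LG and 37.5, 41.4 and 40.2 CPM in LGCAR. Its change with glucose was 0.09 (edgeR adjusted p = 0.278) with a 95% interval of -0.02 to 0.19. HIF1A lies on chromosome 14, 61695513 to 61748258, EPAS1 on chromosome 2, 46297407 to 46386697 and ARNT on chromosome 1, 150809713 to 150876599 (RefSeq, GRCh38.p14). With ribosomal RNA content as a covariate, the call of HIF1A in LGCAR against CAR was lost (log2 fold change 0.29, edgeR adjusted p = 0.0763).

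None of the 5 oxygen-sensing and degradation genes was called by edgeR in any comparison with all libraries and groups in the fit and low counts filtered. Of all tested genes 9.73% were called on the glucose average, 8.75% in LGCAR against NG and 1.73% in LG against NG. An absence of calls among 5 genes lies near those shares. EGLN3, the prolyl hydroxylase that is itself a strong target of the factors, was at 11.4, 11.7 and 11.9 CPM in NG, 11.7, 10.9 and 9.32 CPM in CAR, 8.87, 7.79 and 10.9 CPM in LG and 10.1, 8.42 and 10.9 CPM in LGCAR. The LG libraries were all below the NG libraries, with -0.35 (edgeR adjusted p = 0.182), and without LG 3 it passed at -0.49 (edgeR adjusted p = 0.0377). EGLN1, the main oxygen sensor of most cells, was at 85.3, 81.05 and 76.5 CPM in NG, 71.6, 73.4 and 68.6 in LG, 76.3, 75.2 and 79.1 in CAR and 75.1, 78.4 and 79.1 in LGCAR. It stood lower in every LG library than in every NG library, with -0.18 (edgeR adjusted p = 0.095) and a DESeq2 adjusted p of 0.0463, whereas LGCAR against CAR gave 0.01 (edgeR adjusted p = 0.927), and the difference between these changes was not called (interaction 0.20, 95% interval 0.04 to 0.36, edgeR adjusted p = 0.9999). EGLN2, the remaining prolyl hydroxylase, ranged from 52.9 to 58.7 CPM over the 12 libraries. VHL, which recognises the hydroxylated factor, was at 81.8, 78.7 and 73.7 CPM in NG, 80.5, 86.3 and 91.3 CPM in CAR, 93.8, 86.6 and 74.7 CPM in LG and 86.4, 84.5 and 88.7 CPM in LGCAR. The groups overlapped except for LGCAR, which was above NG by 0.15 without passing the test (edgeR adjusted p = 0.189). HIF1AN was at 56.9, 56.6 and 56.4 CPM in NG, 55.3, 64.8 and 62.4 CPM in CAR, 62.5, 58.3 and 56.4 CPM in LG and 63.9, 64.1 and 61.97 CPM in LGCAR, again with LGCAR above NG (0.16, edgeR adjusted p = 0.0948). With only LGCAR and NG in the fit, VHL and HIF1AN passed (edgeR adjusted p = 0.044 and 0.0246). Without the filter on low counts, EGLN3 passed on the glucose average (edgeR adjusted p = 0.0469), as it did without LG 3 (0.0164).

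Among the secreted factors, ligands and the receptor, VEGFA and adrenomedullin were the ones called. VEGFA encodes the main angiogenic growth factor under control of the pathway. VEGFA was at 380.2, 369 and 360.2 CPM in NG 1 to 3, 392, 349 and 359 CPM in CAR 1 to 3, 308, 298 and 334 CPM in LG 1 to 3 and 290.3, 295 and 270.4 CPM in LGCAR 1 to 3. Every library at 5 mM glucose was below every library at 10 mM, as for 5 others of the 38 genes and 2.13% of all tested genes. VEGFA fell by 22.2% in LGCAR against CAR (log2 change -0.36 with SE 0.0573, edgeR adjusted p = 0.00462) and fell by 22.8% in LGCAR against NG (log2 change -0.37 with SE 0.0573, edgeR adjusted p = 0.00258), and over both drug levels the log2 fold change was -0.30 (SE 0.0405, edgeR adjusted p = 2.92e-04). The call in LGCAR against CAR was lost with ribosomal RNA content as covariate (edgeR adjusted p = 0.104) and when NG 1 and LGCAR 3 were both dropped (0.0638). The call in LG against NG (-0.24, edgeR adjusted p = 0.0446) was narrow and was lost on leaving out NG 1, NG 2, NG 3, LG 1 or LG 2 (adjusted p from edgeR between 0.106 and 0.216). It was also lost in 5 of 10 other settings, limma-voom among them (adjusted p from edgeR or limma-voom between 0.0507 and 0.146). ADM encodes adrenomedullin, a vasodilator peptide. ADM was at 31.8, 29.4 and 29.5 CPM in NG 1 to 3, 29.8, 22.3 and 25.2 CPM in CAR 1 to 3, 26.1, 24.7 and 29.3 CPM in LG 1 to 3 and 21.6, 22.9 and 22.6 CPM in LGCAR 1 to 3. The LGCAR libraries were all below those of NG and LG, and CAR 1 stood with NG while CAR 2 and CAR 3 stood lower. ADM fell by 26.1% in LGCAR against NG (log2 change -0.44 with SE 0.0912, edgeR adjusted p = 0.0127), a call that was lost on leaving out NG 3 or LGCAR 1 (adjusted p from edgeR between 0.0562 and 0.0662). On its own neither lower glucose over both drug levels (-0.19, edgeR adjusted p = 0.0631) nor cariporide over both glucose levels (-0.24, edgeR adjusted p = 0.249) passed the test for ADM. The glucose change of ADM passed by DESeq2 (adjusted p = 0.0462), with library totals as scaling (edgeR adjusted p = 0.043), without the filter on low counts (0.0167) and without CAR 2 or LG 3 (0.0186 and 0.0168). VEGFA lies on chromosome 6, 43770211 to 43786487 and ADM on chromosome 11, 10305073 to 10307397.

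The other tested secreted and surface members were not called by edgeR with all groups in the fit. STC1, a stanniocalcin ranged from 77.9 CPM (LGCAR 3) to 94.1 CPM (CAR 2), with a glucose interval of -0.15 to 0.02. Its relative STC2 was scarce, at 1.85, 1.55 and 1.83 CPM in NG and 0.786, 1.24 and 1.12 CPM in LGCAR, and had the lowest log2 fold change of the 38 genes in LGCAR against NG at -0.74 (edgeR adjusted p = 0.0673). With only these groups in the fit STC2 passed (-0.75, edgeR adjusted p = 0.0288). The 2 groups did not overlap for STC2, but its lowest library held only 16 counts. EFNA1, an ephrin ligand, averaged 5.88 ± 0.365 CPM in NG and 5.31 ± 0.478 in LGCAR (SD, n = 3 each), with -0.15 (edgeR adjusted p = 0.36). CXCR4, the receptor of the chemokine CXCL12, was at 3.06 ± 0.305 and 2.61 ± 0.241 CPM in the same groups, with -0.23 (edgeR adjusted p = 0.363).

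Of the 4 mitochondrial members, 3 fell at 5 mM glucose over both drug levels, beside 4.43% of all tested genes. BNIP3 and BNIP3L are receptors of the outer mitochondrial membrane that mark mitochondria for autophagy. BNIP3 was at 225, 239.9 and 243 CPM in NG 1 to 3, 246, 208 and 211 CPM in CAR 1 to 3, 186, 194 and 218 CPM in LG 1 to 3 and 183, 202 and 185 CPM in LGCAR 1 to 3. In each pairing of groups the 5 mM libraries were lower, although CAR 2 and CAR 3 lay below LG 3, so that over both drug levels the libraries overlapped. BNIP3 changed by -0.23 on the log2 scale over both drug levels (SE 0.0499, edgeR adjusted p = 0.00894) and by -0.31 in LGCAR against NG (edgeR adjusted p = 0.0184), the latter not called on leaving out NG 2, NG 3, LGCAR 1 or LGCAR 3 (adjusted p from edgeR between 0.0712 and 0.0943). In LG against NG it stood at -0.24 (edgeR adjusted p = 0.101) and passed by DESeq2 (adjusted p = 0.0413) and without LG 3 (-0.32, edgeR adjusted p = 0.0213). BNIP3L was at 154, 147 and 143 CPM in NG 1 to 3, 149, 152 and 149.9 CPM in CAR 1 to 3, 132, 134 and 121 CPM in LG 1 to 3 and 145, 139 and 137 CPM in LGCAR 1 to 3. BNIP3L was lowest in LG, its LGCAR libraries were above LG and overlapped NG, and it changed by -0.15 with lower glucose (SE 0.0353, edgeR adjusted p = 0.0143). LG against NG gave -0.20 (edgeR adjusted p = 0.0556) for BNIP3L and a DESeq2 adjusted p of 0.0127. FAM162A encodes a mitochondrial protein linked to cell death under hypoxia. FAM162A was at 18.5, 16.97 and 18.7 CPM in NG 1 to 3, 19.2, 16.9995 and 17.6 CPM in CAR 1 to 3, 15.3, 16.1 and 16.7 CPM in LG 1 to 3 and 13.6, 13.9 and 14.3 CPM in LGCAR 1 to 3. It was lowest in LGCAR, below LG in every library, and fell by 22.5% against CAR (log2 change -0.37 with SE 0.0732, edgeR adjusted p = 0.0193) and fell by 22.9% against NG (log2 change -0.38 with SE 0.0738, edgeR adjusted p = 0.00945). In LGCAR against CAR the call of FAM162A was lost on leaving out CAR 1, CAR 3, LGCAR 1, LGCAR 2 or LGCAR 3 (adjusted p from edgeR between 0.0545 and 0.0908) and with the ribosomal RNA share as a covariate (edgeR adjusted p = 0.256), and in LGCAR against NG it was lost on leaving out NG 3 or LGCAR 1 (adjusted p from edgeR between 0.0538 and 0.0587). AK4, an adenylate kinase of the mitochondrial matrix, was not called for glucose, at -0.02 (edgeR adjusted p = 0.891). Its 3 LGCAR libraries (148, 145 and 144 CPM) were above its LG libraries (133, 129 and 110.2 CPM), and with only LGCAR and NG in the fit AK4 passed between them (edgeR adjusted p = 0.0432). BNIP3 lies on chromosome 10, 131967684 to 131981923 and FAM162A on chromosome 3, 122384182 to 122412334.

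HILPDA had the lowest log2 fold change with glucose of the 38 genes. It encodes a lipid droplet protein that inhibits triglyceride breakdown. HILPDA was at 8.58, 9.72 and 9.65 CPM in NG 1 to 3, 9.38, 10.02 and 8.74 CPM in CAR 1 to 3, 6.36, 7.13 and 7.02 CPM in LG 1 to 3 and 6.83, 7.3 and 8.3 CPM in LGCAR 1 to 3. The libraries at 5 mM were all below those at 10 mM, and HILPDA fell by 26.7% in LG against NG (log2 change -0.45 with SE 0.102, edgeR adjusted p = 0.0354) with a log2 fold change of -0.39 over both drug levels (SE 0.0724, edgeR adjusted p = 0.00381). The LG call was lost on leaving out NG 2, NG 3, LG 1 or LG 2 (adjusted p from edgeR between 0.0951 and 0.17). It was also lost in 2 of 10 other settings (adjusted p from edgeR between 0.0531 and 0.0721). In LGCAR against NG it did not pass (edgeR adjusted p = 0.0612), but did without NG 1 (0.0437) and with only these groups in the fit (0.037). DDIT4 had, in NG, a level per kilobase within the spread of that of ERRFI1 and above the other members. DDIT4 was at 259, 270.4 and 267 CPM in NG 1 to 3, 279, 251 and 246 CPM in CAR 1 to 3, 241, 231 and 253 CPM in LG 1 to 3 and 239, 227 and 229 CPM in LGCAR 1 to 3. The groups at 5 mM were lower except that LG 3 exceeded CAR 2 and CAR 3, and DDIT4 fell by 9.77% over both drug levels (edgeR adjusted p = 0.023) and fell by 12.7% in LGCAR against NG (edgeR adjusted p = 0.0362). These calls were lost on leaving out NG 2, NG 3, LG 2, LGCAR 2 or LGCAR 3 (adjusted p from edgeR between 0.0537 and 0.0675) and on leaving out NG 2, NG 3, LGCAR 1, LGCAR 2 or LGCAR 3 (adjusted p from edgeR between 0.0834 and 0.134). NDRG1, a widely used marker gene of hypoxia, was called by edgeR in LGCAR against NG. NDRG1 was at 337, 351 and 362 CPM in NG 1 to 3, 354, 321 and 305 CPM in CAR 1 to 3, 308, 326 and 325 CPM in LG 1 to 3 and 301, 317 and 299.8 CPM in LGCAR 1 to 3. The LG and LGCAR libraries were all below the NG libraries, and LGCAR passed the test (log2 change -0.19 with SE 0.0553, edgeR adjusted p = 0.0402), and the call was lost on leaving out NG 2, NG 3, LGCAR 1, LGCAR 2 or LGCAR 3 (adjusted p from edgeR between 0.0713 and 0.168). Over both drug levels lower glucose gave -0.11 (edgeR adjusted p = 0.0786) for NDRG1, which passed by DESeq2 (adjusted p = 0.042), without the filter on low counts (edgeR adjusted p = 0.0404) and without CAR 3 or LG 3 (0.0465 and 0.0447). ERRFI1 ranged from 483 to 583 CPM and was not called, although its LGCAR libraries were the lowest of the 12. HILPDA lies on chromosome 7, 128455878 to 128458418 and DDIT4 on chromosome 10, 72273924 to 72276036.

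CITED2 and TMEM45A were the called genes among the transcription and feedback members. CITED2 encodes a protein that competes with the factors for the coactivators p300 and CBP and so limits their activity. CITED2 was at 136, 129 and 126 CPM in NG 1 to 3, 129.7, 108 and 105 CPM in CAR 1 to 3, 140.5, 144 and 153 CPM in LG 1 to 3 and 129, 135 and 127 CPM in LGCAR 1 to 3. It was highest in LG and lowest in CAR 2 and CAR 3, and LGCAR overlapped NG. CITED2 rose by 12.9% with lower glucose over both drug levels (log2 change 0.18 with SE 0.0482, edgeR adjusted p = 0.0317), a call that was lost on leaving out NG 2, NG 3, CAR 2, CAR 3, LG 2, LGCAR 1, LGCAR 2 or LGCAR 3 (adjusted p from edgeR between 0.0515 and 0.0909). Without CAR 1 it also passed in LGCAR against CAR (0.29, edgeR adjusted p = 0.0105). TMEM45A encodes a transmembrane protein. TMEM45A was at 10.6, 12.8 and 12.9 CPM in NG 1 to 3, 13.2, 10.9 and 9.98 CPM in CAR 1 to 3, 9.04, 9.66 and 9.98 CPM in LG 1 to 3 and 8.2, 9.32 and 11.3 CPM in LGCAR 1 to 3. The groups overlapped over both drug levels, and the call that it fell by 18.4% (edgeR adjusted p = 0.0462) was lost on leaving out NG 2, NG 3, CAR 1, CAR 2, LG 1, LG 2, LGCAR 1 or LGCAR 2 (adjusted p from edgeR between 0.0554 and 0.121) and under 3 other settings. TMEM45A passed in LGCAR against NG with only these groups in the fit (edgeR adjusted p = 0.0328). BHLHE40, a repressor of the bHLH family, was at 178 ± 3.28 CPM in NG, 177 ± 2.16 CPM in CAR, 187 ± 4.68 CPM in LG and 170.0 ± 9.63 CPM in LGCAR (SD, n = 3 each). It was not called in any comparison or alternative, nor were WSB1, a subunit of a ubiquitin ligase, ZNF395, a zinc finger factor, and ANKRD37, a small ankyrin protein. ANKRD37 was measured with little precision, with a glucose interval of -0.44 to 0.07, against -0.06 to 0.09 for WSB1 and -0.03 to 0.14 for ZNF395. CITED2 lies on chromosome 6, 139371807 to 139374648 and TMEM45A on chromosome 3, 100492619 to 100577444.

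KDM3A, KDM4B, KDM4C and JMJD6 belong to the JmjC family, oxygenases that need oxygen, iron and oxoglutarate. JMJD6 hydroxylates lysines of splicing factors. JMJD6 was at 29.9, 32.8 and 32.6 CPM in NG 1 to 3, 32.7, 30.1 and 31.98 CPM in CAR 1 to 3, 24.1, 25.9 and 25.4 CPM in LG 1 to 3 and 22.99, 23.1 and 24.6 CPM in LGCAR 1 to 3. Its libraries at 5 mM were all lower than those at 10 mM, and CAR overlapped NG as LGCAR did LG. JMJD6 fell by 20.9% in LG against NG (log2 change -0.34 with SE 0.061, edgeR adjusted p = 0.00911), fell by 25.5% in LGCAR against CAR (log2 change -0.42 with SE 0.0619, edgeR adjusted p = 0.00332) and fell by 25.8% in LGCAR against NG (log2 change -0.43 with SE 0.0624, edgeR adjusted p = 0.0018). The first call was lost on leaving out NG 2, NG 3 or LG 1 (adjusted p from edgeR between 0.0575 and 0.0623), and the second with the ribosomal RNA share as a covariate (edgeR adjusted p = 0.0883). KDM3A removes methyl groups from histone tails and is a direct target of HIF1A. KDM3A was at 75.05, 70.8 and 77.1 CPM in NG 1 to 3, 70.7, 72.2 and 68.8 CPM in CAR 1 to 3, 65.9, 64.7 and 61.3 CPM in LG 1 to 3 and 66.02, 68.002 and 65.8 CPM in LGCAR 1 to 3. Over both drug levels the libraries did not overlap (log2 fold change -0.15, SE 0.036, edgeR adjusted p = 0.0162). The call in LG against NG (-0.22, edgeR adjusted p = 0.0401) was lost on leaving out NG 1, NG 2, NG 3, LG 1, LG 2 or LG 3 (adjusted p from edgeR between 0.0603 and 0.186). It was also lost in 4 of 10 other settings (adjusted p from edgeR between 0.0581 and 0.124). In LGCAR against NG, KDM3A passed by DESeq2 (adjusted p = 0.0386) and by edgeR with only these groups in the fit (0.0166), but not by edgeR with all groups (0.0605). KDM4B and KDM4C, related demethylases, were not called, with glucose intervals of -0.08 to 0.17 and -0.17 to 0.19, although KDM4B passed in LGCAR against NG with only these groups in the fit (edgeR adjusted p = 0.0135). JMJD6 lies on chromosome 17, 76712836 to 76726606 and KDM3A on chromosome 2, 86437044 to 86492716.

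Of the 6 collagen-modifying members, PLOD2 and P4HA1 were lower at 5 mM glucose over both drug levels, beside 4.43% of all tested genes. PLOD2 encodes a lysyl hydroxylase whose product allows stable collagen cross-links. PLOD2 was at 204, 201 and 203 CPM in NG 1 to 3, 199, 187 and 191 CPM in CAR 1 to 3, 179, 186 and 179.8 CPM in LG 1 to 3 and 173, 181 and 167 CPM in LGCAR 1 to 3. The 3 NG libraries (SD 1.42 CPM) were above the other 9, and the 5 mM libraries were below all at 10 mM. PLOD2 changed by -0.15 over both drug levels (SE 0.0321, edgeR adjusted p = 0.00798) and by -0.22 in LGCAR against NG (SE 0.0455, edgeR adjusted p = 0.012). The latter call was lost on leaving out NG 3, LGCAR 1 or LGCAR 3 (adjusted p from edgeR between 0.0557 and 0.0587). P4HA1 encodes a catalytic subunit of collagen prolyl hydroxylase. P4HA1 was at 107, 106 and 104 CPM in NG 1 to 3, 103, 106 and 104 CPM in CAR 1 to 3, 95.1, 98.1 and 93.8 CPM in LG 1 to 3 and 95.9, 105 and 95.7 CPM in LGCAR 1 to 3. LG was below NG in every library and LGCAR 2 stood with the 10 mM groups, and the change of -0.11 (edgeR adjusted p = 0.0465) was lost on leaving out NG 1, NG 2, NG 3, CAR 2, CAR 3, LG 1, LG 2, LGCAR 1 or LGCAR 3 (adjusted p from edgeR between 0.0578 and 0.109) and under 4 other settings. Its relative P4HA2 and PLOD1, another lysyl hydroxylase, were not called, with glucose intervals of -0.16 to 5.99e-04 and -0.07 to 0.09. The cross-linking oxidases were not called either: LOX had an interval of -0.03 to 0.12 and LOXL2 of -0.03 to 0.11. LOX was below NG in every CAR library (106, 104 and 97.3 against 112, 111 and 112 CPM), at -0.13 (edgeR adjusted p = 0.894). PLOD2 lies on chromosome 3, 146069440 to 146161184 and P4HA1 on chromosome 10, 73007217 to 73096866.

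Lower glucose was compared without cariporide (LG against NG) and with it (LGCAR against CAR), in comparisons that have no library in common. Without cariporide 5 genes were called, beside 1.73% of all tested genes: HIF1A higher (151 of 15104 genes were) and HILPDA, JMJD6, KDM3A and VEGFA lower (0.728%). With cariporide 4 were called, beside 1.65% of all tested genes: HIF1A higher (0.973% of all genes) and FAM162A, JMJD6 and VEGFA lower (0.675%). HIF1A, JMJD6 and VEGFA were called in both. The estimates of 19 genes were below 0 in both comparisons and those of 11 above 0 in both, and 8 had opposite signs. The same sign was seen for 78.9% of the 38 genes and for 70.7% of all tested genes. The libraries of LG and NG did not overlap for 15 genes that were lower and 4 that were higher, beside 9.51% and 9.86% of all tested genes. Between LGCAR and CAR the numbers were 12 and 2, beside 11.9% and 13.4%. The numbers called move with the settings, for which the shares of all tested genes are not given here. Without NG 2, NG 3 or LG 1 the number called in LG against NG was 1, without LG 2 it was 2 and without NG 1 it was 3, and HIF1A was called in each. In LGCAR against CAR it was 0 with ribosomal RNA content as a covariate, a share that did not overlap between those groups.

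**Figure D3:**
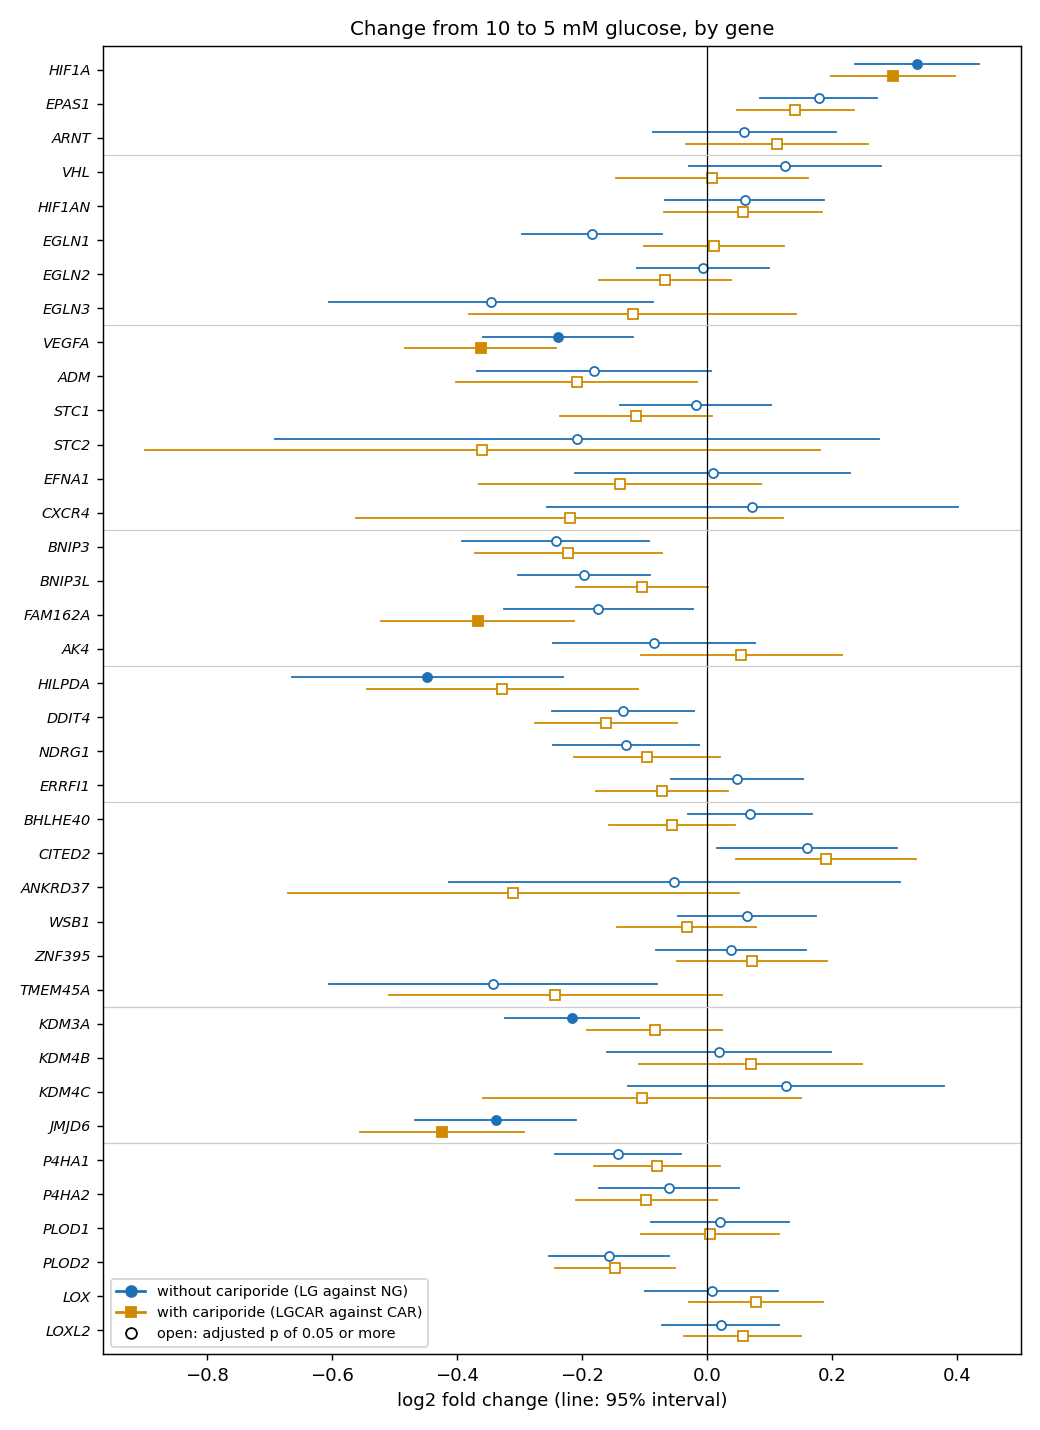
Log2 fold change from 10 to 5 mM glucose for the 38 tested genes, without cariporide (circles) and with it (squares), grouped by role, with 95% intervals. Filled symbols are genes with an adjusted p under 0.05. HIF1A stands to the right of 0 and JMJD6 and VEGFA to the left in both comparisons, with all of their symbols filled.

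Cariporide changed none of the 38 genes past the test at either glucose level. In CAR against NG 0 were called by edgeR (and 0% of all tested genes), 0 by DESeq2 and 0 by limma-voom, with 3 genes at an unadjusted p under 0.05, beside 4.53% of all genes. In LGCAR against LG the number was 0 by each of these tools, beside 0.00662% of all tested genes by edgeR, with 10 genes at an unadjusted p under 0.05, beside 11.9%. The libraries of CAR and NG did not overlap for 0 genes that were higher (4.44% of all genes) and for 2 that were lower, PLOD2 and LOX (4.67%; either direction 9.11%). Between LGCAR and LG they did not overlap for 3 genes that were higher, EGLN1, BNIP3L and AK4 (10.9%), and for 10 that were lower (10.5%; either direction 21.3%). The estimates ran from -0.38 (STC2) to 0.21 (ANKRD37) at 10 mM and from -0.54 (STC2) to 0.23 (AK4) at 5 mM. For HIF1A the 95% intervals were -0.05 to 0.15 and -0.08 to 0.11, and for VEGFA -0.13 to 0.11 and -0.26 to -0.01. Over both glucose levels 0 were called by edgeR, DESeq2 and limma-voom (edgeR called 0.00662% of all tested genes), with 9 at an unadjusted p under 0.05, beside 15.3% of all genes. That number rested on CAR 1, where ADM, AK4, CITED2 and NDRG1 lay within the range of NG. Without CAR 1, 5 were called by edgeR, as were 1300 of all tested genes, with ADM (-0.30), CITED2 and NDRG1 lower and AK4 and HIF1AN higher with cariporide. CAR 1 also had the lowest share of ribosomal RNA of all libraries. With that share as a covariate and CAR 1 kept, 0 of the 38 genes were called by edgeR. The share of all tested genes called in that fit is not given here, so its count cannot be read as particular to the members. Whether ribosomal RNA content has a part in the effect of CAR 1 was not tested.

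**Figure D4:**
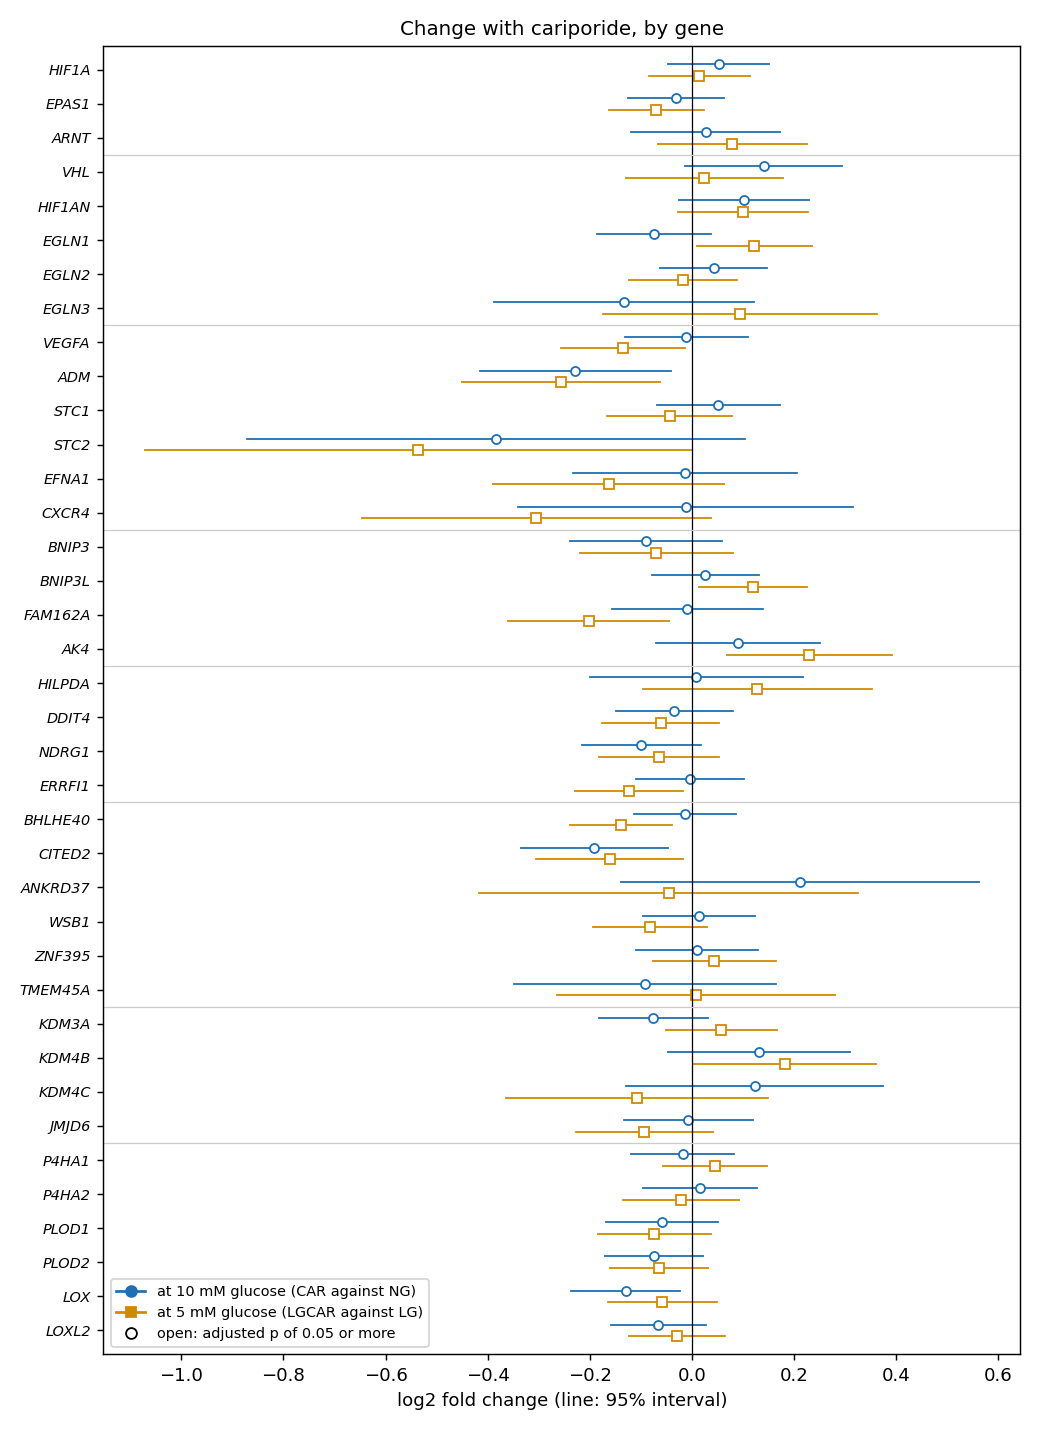
Log2 fold change with cariporide for the 38 tested genes at 10 mM glucose (circles) and at 5 mM glucose (squares), grouped by role, with 95% intervals. All symbols are open, since no gene had an adjusted p under 0.05, and STC2 has the lowest estimate at both glucose levels.

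The response to cariporide did not differ detectably between the glucose levels for any of these genes. The interaction, which is the change with cariporide at 5 mM minus that at 10 mM, gave 0 calls among the 38 genes by edgeR, DESeq2 and limma-voom, and 1 gene, EGLN1, at an unadjusted p under 0.05 (all genes 3.13%), where edgeR called 0.00662% of all tested genes. Its estimates ran from -0.29 (CXCR4) to 0.23 (EGLN3). The 95% intervals were -0.29 to 0.05 for VEGFA, -0.41 to 0.02 for FAM162A and -0.18 to 0.10 for HIF1A, and for FAM162A the lower bound lay beyond its whole change with glucose (-0.27).

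Both changes together, LGCAR against NG, moved 9 of the 38 genes, beside 8.75% of all tested genes. HIF1A was higher (all genes 4.63%), and JMJD6, VEGFA, FAM162A, PLOD2, ADM, BNIP3, DDIT4 and NDRG1 were lower (8 genes, beside 4.12% of all tested genes). ADM, DDIT4, BNIP3, FAM162A, PLOD2 and NDRG1 were called here by edgeR and in neither LG against NG nor CAR against NG. DESeq2 did call BNIP3 and PLOD2 in LG against NG (adjusted p = 0.0413 and 0.0279). With the ribosomal RNA share as a covariate edgeR called both there as well (edgeR adjusted p = 0.0137 and 0.0432). It also called BNIP3 there without the filter on low counts (0.0317) and without LG 3 (0.0213). These comparisons share the NG libraries, and for ADM the values side by side were -0.18 in LG, -0.23 in CAR and -0.44 in LGCAR, and for PLOD2 -0.16, -0.07 and -0.22. For HIF1A they were 0.34, 0.05 and 0.35. The libraries of LGCAR and NG did not overlap for 15 genes that were lower and 6 that were higher, beside 17.5% and 20.7% of all tested genes. The number called was 3 without NG 3 or without LGCAR 1, 5 without LGCAR 3 and 17 when only these 2 groups entered the fit. HIF1A, JMJD6 and VEGFA kept their calls in all of these. The shares of all tested genes called in those fits are not given here, so the counts cannot be read as particular to the members. Of the markers of other cell types, CDH1 (0.79, edgeR adjusted p = 0.0335) and PDGFRB (0.35, edgeR adjusted p = 0.0365) rose in this comparison, and their part in it was not tested.

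Other genes of the pathway were read from the same fit. Of 21 glycolytic genes that the factors are known to activate, 7 fell and 0 rose with lower glucose over both drug levels, with a median of -0.07, where 4.43% of all tested genes fell and 5.30% rose. The smallest p-values were those of PFKFB4 and PFKFB3, kinases that raise an activator of glycolysis, at -0.33 (edgeR adjusted p = 7.32e-04) and -0.25 (edgeR adjusted p = 7.77e-04), and of SLC16A3, a lactate exporter, at -0.18 (edgeR adjusted p = 0.0067). Of 25 further reported targets 9 fell and 1 rose (the same shares of all genes apply), with a median of -0.09. VLDLR, a lipoprotein receptor, fell (-0.27, edgeR adjusted p = 0.00143), while CA12, a membrane carbonic anhydrase, rose (0.57, edgeR adjusted p = 5.10e-05). Of 17 tested cofactors, ligase subunits and chaperones of the factors 0 were called by edgeR in this comparison, with 4 at an unadjusted p under 0.05, as were 26.0% of all tested genes. In LGCAR against NG 3 of the glycolytic genes fell, among them SLC2A1, the main glucose transporter (-0.19, edgeR adjusted p = 0.0263), and 5 of the further targets fell and 1 rose, beside 4.12% and 4.63% of all tested genes. With cariporide at either glucose level none of the genes tested on these lists (21, 25 and 17) was called by edgeR. At an unadjusted p under 0.05 there were 3 at 10 mM and 9 at 5 mM, beside 4.53% and 11.9% of all tested genes.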

How the data were processed

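The values are whole-number counts per gene symbol, which the authors deposited as 1 table for each of the 12 libraries. The tools fastp, STAR, Salmon and GATK with GRCh38 are named per the submitters' processing notes. What made the counts, and any use of strand, was not given in the sources used here. Libraries were made with a directional kit, per the labels' protocols. Genes passing filterByExpr were fitted in edgeR 4.0.16 (robust quasi-likelihood, R 4.3.3) with TMM scaling and 1 mean for each group, and p-values were adjusted over all 15104 genes in each of 8 comparisons. CPM were computed here with the same scaling. Groups come from the titles. Nothing states that libraries of a group were separate cultures, so p-values may measure technical spread. The genes and lists were chosen with earlier results of these data known. All 39 genes may be named, with values in every library for those called and for the core factors and sensors, and of other lists up to 3 called genes by p, plus TXNIP. Some genes that this rule names are not reported here. Exon lengths and overlaps came from GENCODE 29, and coordinates and promoters from RefSeq. DESeq2 1.42.0 and limma-voom (limma 3.58.1) were alternatives, besides other scalings, filters and samples. On simulated data with 15104 genes, 1.25-fold changes were recovered in 34.0% of cases in LG against NG, 64.0% on the glucose average and 12.0% in the interaction. A planned search of protein sequences was not run, since no protein table was used here. Figures were drawn with matplotlib 3.10.9 in Python 3.11.15.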

Additional observations from a re-analysis of the deposited data

How the results depend on the processing

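The 32 called results were set against 582 alternatives: 471 kept the call, 111 lost it and 0 changed sign. Estimates of genes not called did change sign in some settings. In CAR against NG this was 10 of 38 with library totals as scaling, and in LGCAR against CAR 8 of 34 with the ribosomal RNA share as a covariate. Replicate numbers did not pair the libraries: deviations of same-numbered libraries correlated by -0.111 to 0.135 over 18 pairs. With the replicate number as a block, 2 genes were called in LG against NG (5 without the block), 4 in LGCAR against CAR, 0 in CAR against NG, 7 in LGCAR against NG, 0 for LGCAR and LG, 12 for glucose, 0 for cariporide and 0 in the interaction. In LG against NG the count was 10 by DESeq2, 9 with the ribosomal RNA share as a covariate, 3 without NG 1 and LGCAR 3, the libraries with the most ribosomal RNA, and 2 with these groups alone. In LGCAR against CAR it was 0 with that covariate and 2 without those libraries. Without them it was 3 in LGCAR against NG and 9 of 14 for glucose, and 17 in LGCAR against NG with these groups alone. The numbers of all genes called under each setting are not set beside the counts in this paragraph. They therefore do not show whether the members or all genes moved. The causes were not tested. With 1 library left out the counts ran from 1 to 6 in LG against NG, 3 to 10 in LGCAR against NG, 3 to 4 in LGCAR against CAR, 10 to 17 for glucose and 0 to 5 for cariporide. Scaling by library totals alone, added after the data were seen, gave 14 calls for glucose. No scaling moved the median of all genes by 0.1 on the log2 scale. At this depth the interaction was the least precise comparison.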

Other observations

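EFNA3 was the only gene of the 39 that did not pass the filter. It was listed at 0 counts in 10 libraries, 22 counts in LG 1 and 25 counts in LGCAR 1. A separate entry of the tables, EFNA4-EFNA3, had 0 counts in LG 1 and LGCAR 1 and 25 to 43 counts in the other 10 libraries. EFNA4 had 52 to 108 counts in all 12.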
